A study of Mus musculus with 12 samples.

Results

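Cells that carried both Endoglin and Flk1 at their surface (Eng+Flk1+) were compared with cells that carried neither (Eng-Flk1-), both sorted from mouse embryos at embryonic day 7.5. The comparison rests on the 3 arrays titled Eng+Flk1+ and the 3 titled Eng-Flk1-, 6 of the 12 arrays of the series. The other 6 arrays hold cells with Flk1 alone (Eng-Flk1+) or Endoglin alone (Eng+Flk1-), 3 of each, and enter the model for its estimate of the spread. All embryos were of strain CD-1, with no treatment and no altered gene given in the labels. About 300 embryos of 25 litters were pooled and sorted, and each array received amplified cDNA of 3000 cells. All samples thus come from 1 pool, and p-values reflect how far sorted samples of this pool differ, which may be technical. In bulk samples of this kind, fewer cells of a type and less RNA per cell cannot be told apart.

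Flk1 (gene Kdr) is the main signalling receptor for vascular endothelial growth factor, and it marks the mesoderm from which the first endothelial and blood cells arise. Endoglin, encoded by Eng, binds TGF-beta and BMP ligands as an accessory receptor and works with the type I receptor Alk1 (gene Acvrl1) in endothelial cells. At gastrulation the mesoderm lies between the epiblast, which will form the embryo proper, and the visceral endoderm, an epithelium that feeds the embryo and secretes apolipoproteins.

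Levels are log2 processed signals minus the 75th percentile of the array, so 0 is the level of the spot at that percentile, and a difference is Eng+Flk1+ minus Eng-Flk1- with its standard error (SE). Levels of different genes cannot be set against each other. A spot counts as detected where the scanner software marked it well above background. Detected spots made up 80.3%, 83.3% and 82.2% of the Eng+Flk1+ arrays and 73.7%, 76.3% and 66.5% of the Eng-Flk1- arrays. Correlations between replicate arrays over genes, which are not independent, were 0.812 to 0.854 in Eng+Flk1+ and 0.674 to 0.719 in Eng-Flk1-, and the median SD of a gene was 0.668 and 1.01. The 3 Eng-Flk1- arrays lie on slide 1, Eng+Flk1+ replicates 1 and 2 on slide 2 and Eng+Flk1+ replicate 3 on slide 3. No slide holds both groups, so no value within a slide can be given, and they are linked only through the Eng-Flk1+ arrays on slides 1 and 2.

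The sorting markers were examined first. Kdr (probe at chr5:76214981-76215040, minus strand, build mm8) had levels of 1.53, 1.85 and 1.53 in Eng+Flk1+ replicates 1 to 3, against -4.41, -7.28 and -6.91 in Eng-Flk1-. The groups lay far apart, and the difference was 7.83 ± 0.96 (SE, n = 3 each, limma adjusted p = 0.00262). The probe was detected on just 1 Eng-Flk1- array, so near-background values enter the size of this difference. Eng (chr2:32503799-32503858, plus strand) had levels of 2.76, 1.04 and 2.49 in Eng+Flk1+, against 0.13, -1.47 and -0.13 in Eng-Flk1-. Its transcript was higher on every Eng+Flk1+ array than on any Eng-Flk1- array, by 2.59 ± 0.69, but missed the threshold (limma adjusted p = 0.0938).

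**Figure D1:**
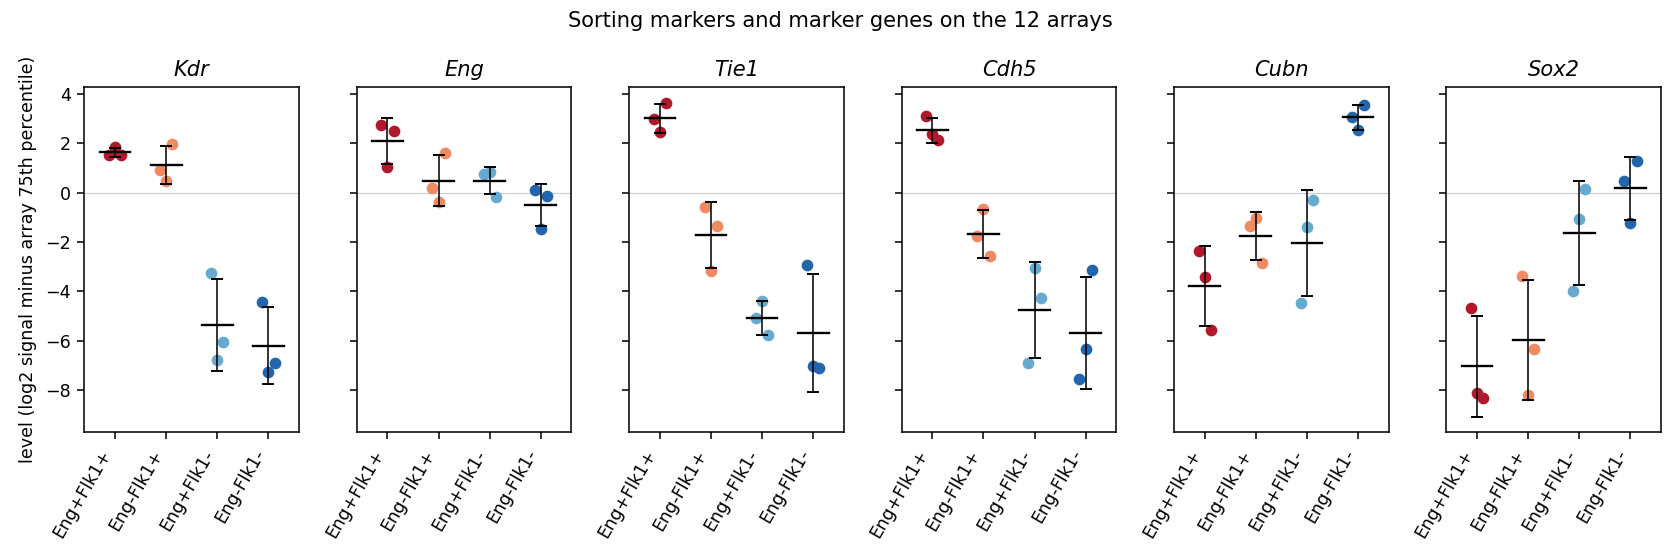
Levels of the 2 sorting markers and 4 marker genes on the 12 arrays, in log2 signal minus the array's 75th percentile, with 1 point per array and the mean ± SD of each fraction. Tie1 and Cdh5 were highest on the 3 Eng+Flk1+ arrays, and Cubn was highest on the 3 Eng-Flk1- arrays.

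The 4 marker genes separated the groups in opposite directions. Tie1, an endothelial receptor tyrosine kinase (chr4:117969459-117969518, minus strand), had levels of 2.97, 2.45 and 3.64 in Eng+Flk1+, against -2.92, -7.03 and -7.11 in Eng-Flk1-. The difference was 8.70 ± 1.08 (limma adjusted p = 0.00262). Cdh5, the cadherin of endothelial junctions (chr8:107032728-107032787, plus strand), had levels of 3.10, 2.39 and 2.12, against -7.56, -6.36 and -3.15 in Eng-Flk1-, a difference of 8.22 ± 1.18 (limma adjusted p = 0.00565). The probes used for Tie1 and Cdh5 were each detected on 1 of the 3 Eng-Flk1- arrays, and all probes of Cdh5 gave 3.7 to 8.2. Cubn, the visceral endoderm receptor for vitamin B12 complexes and albumin (chr2:13194214-13194273, minus strand), had levels of -2.38, -3.43 and -5.57 in Eng+Flk1+, against 3.06, 2.56 and 3.55 in Eng-Flk1-. It differed by -6.85 ± 1.08 (limma adjusted p = 0.00951). Sox2, a transcription factor of the epiblast and neural plate (chr3:34843400-34843459, plus strand), had levels of -4.69, -8.13 and -8.31, against 0.49, -1.21 and 1.28 in Eng-Flk1-, a difference of -7.23 ± 1.47 (limma adjusted p = 0.0308). Sox2 was detected on 1 of the 3 Eng+Flk1+ arrays, so near-background values enter this size too. Tie1, Cdh5 and Cubn kept an adjusted p under 0.05 whichever of the 6 arrays was left out, while Sox2 lost it without Eng+Flk1+ replicate 2 or 3, as well as without Eng-Flk1- replicate 1 or 3 (highest adjusted p = 0.115).

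Promoter sequences of 4 genes that were higher and 2 that were lower are shown because transcription factors of the Ets family were among the genes that differed. Each is the RefSeq window of GRCm38.p6 from 250 bases before to 50 bases after the start of the gene, with matches to the Ets motif on either strand in capitals.
Kdr, chr5:75978406-75978705, minus strand: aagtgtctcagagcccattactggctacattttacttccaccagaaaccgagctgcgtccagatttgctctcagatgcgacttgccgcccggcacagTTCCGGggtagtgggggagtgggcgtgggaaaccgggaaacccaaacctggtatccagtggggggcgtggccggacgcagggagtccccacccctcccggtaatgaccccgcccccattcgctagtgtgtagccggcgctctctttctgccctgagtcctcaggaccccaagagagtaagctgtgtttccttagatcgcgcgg
Tie1, chr4:118489800-118490099, minus strand: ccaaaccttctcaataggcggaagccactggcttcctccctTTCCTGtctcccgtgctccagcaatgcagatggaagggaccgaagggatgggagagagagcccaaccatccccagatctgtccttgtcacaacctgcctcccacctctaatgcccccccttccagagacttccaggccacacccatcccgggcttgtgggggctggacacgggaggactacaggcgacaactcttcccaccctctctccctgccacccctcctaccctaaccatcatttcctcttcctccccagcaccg
Tek, chr4:94739039-94739338, plus strand: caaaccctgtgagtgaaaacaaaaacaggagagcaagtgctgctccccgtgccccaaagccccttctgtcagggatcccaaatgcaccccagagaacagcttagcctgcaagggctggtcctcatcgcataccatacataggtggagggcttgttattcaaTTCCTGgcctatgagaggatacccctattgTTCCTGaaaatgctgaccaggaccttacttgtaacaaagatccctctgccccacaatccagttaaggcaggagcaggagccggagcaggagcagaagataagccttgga
Etv2, chr7:30635803-30636102, minus strand: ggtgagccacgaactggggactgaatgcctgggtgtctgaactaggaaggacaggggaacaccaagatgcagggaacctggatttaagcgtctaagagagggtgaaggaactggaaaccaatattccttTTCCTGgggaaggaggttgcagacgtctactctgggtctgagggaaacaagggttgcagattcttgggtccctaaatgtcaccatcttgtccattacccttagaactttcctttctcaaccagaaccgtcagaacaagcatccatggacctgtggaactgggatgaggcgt
Cubn, chr2:13491827-13492126, minus strand: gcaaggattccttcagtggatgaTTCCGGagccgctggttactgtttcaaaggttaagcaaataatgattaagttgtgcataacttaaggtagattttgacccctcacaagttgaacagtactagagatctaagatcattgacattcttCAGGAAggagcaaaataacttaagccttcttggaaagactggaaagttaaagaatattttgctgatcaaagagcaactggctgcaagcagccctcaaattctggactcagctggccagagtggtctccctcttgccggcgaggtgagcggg
Sox2, chr3:34649745-34650044, plus strand: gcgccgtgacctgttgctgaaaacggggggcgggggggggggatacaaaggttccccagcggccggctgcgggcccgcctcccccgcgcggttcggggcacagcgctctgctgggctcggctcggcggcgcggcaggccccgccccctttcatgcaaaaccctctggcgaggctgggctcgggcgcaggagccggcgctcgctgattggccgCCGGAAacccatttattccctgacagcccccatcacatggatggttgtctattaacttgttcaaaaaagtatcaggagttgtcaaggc

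The Ets motif was searched as CAGGAA or CCGGAA on both strands. Of the 15 genes called higher in the Ets and SoxF, blood factor and endothelial lists, 9 had a window, and 8 of these held a match (88.9%) in at least 1 window. Of the 15 genes called lower in the visceral endoderm, epiblast and epithelial lists, 10 had a window, and 5 held a match. A match was found for 44.7% of the 27025 genes with a window. The GATA motif AGATAA was found in 3 of the 9 and 1 of the 10, against 12.7% of all genes, and the Sox motif ACAAAG in 2 of the 9 and 2 of the 10, against 21.0%. The Hnf1 motif GTTAAT was found in 1 of the 9 and 2 of the 10, against 8.24%, and the Fox motif TAAACA in 1 of the 9 and 1 of the 10, against 15.1%. No window was matched for Cdh5, S1pr1, Plvap, Fli1, Sox18 and Ecscr among the genes called higher, nor for Zic2, Prss8, St14, Cd24a and Ttr among those called lower. These are matches of letters, with no test, and genes with several start sites have more windows.

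Across all 22844 genes tested, 541 differed between Eng+Flk1+ and Eng-Flk1- at an adjusted p under 0.05 (limma, 2.37%), of which 450 were higher (1.97%) and 91 were lower (0.398%). Genes past this threshold are called below. The median difference of the called genes was 4.46 for those higher and -4.21 for those lower, and the 2 groups of 3 arrays overlapped for none of the 541. Without regard to the test, the groups did not overlap for 2028 genes that were higher (8.88%) and 2108 that were lower (9.23%). Of the 450 genes called higher, 449 were detected on all 3 Eng+Flk1+ arrays, and of these 207 were detected on all 6 arrays and 133 on no Eng-Flk1- array. Of the 91 called lower, 73 were detected on all 6 arrays and 3 on no Eng+Flk1+ array. Where probes of a called gene could be compared, a probe of the other sign was found for 35 of 150 genes called higher and for 11 of 31 called lower. With the test limited to the 17985 genes detected on all 6 arrays, 183 were higher and 65 lower. The part of the lower detection in Eng-Flk1- in the remaining calls was not tested.

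The split between directions depended on the scaling. Subtracting the array median in place of the 75th percentile moved the median difference of all genes to -0.66, from -0.06, and gave 227 genes higher and 154 lower. Quantile normalization gave 301 and 142, and normexp background correction 218 and 88. The share of calls that were higher was 83.2% as reported and 59.6%, 67.9% and 71.2% under these settings. With the slide as a fixed block no gene was called (1273 genes had an unadjusted p under 0.05, and 3547 when slides were ignored). All 541 called genes kept their sign under that block, with a median of 4.35 for those higher and -3.73 for those lower, while the median SE of all genes was 1.43, against 0.75 without the block. With the slide as a random block, 1621 genes were higher and 854 lower. As no slide holds both groups, that run cannot set slide apart from group, and its larger counts are not firmer calls. The correlation within slides that it used is not given. Without Eng+Flk1+ replicate 1, 2 or 3, the counts were 238, 298 and 219 higher and 48, 73 and 42 lower. Without Eng-Flk1- replicate 1, 2 or 3, they were 537, 764 and 511 higher and 147, 261 and 169 lower.

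**Figure D2:**
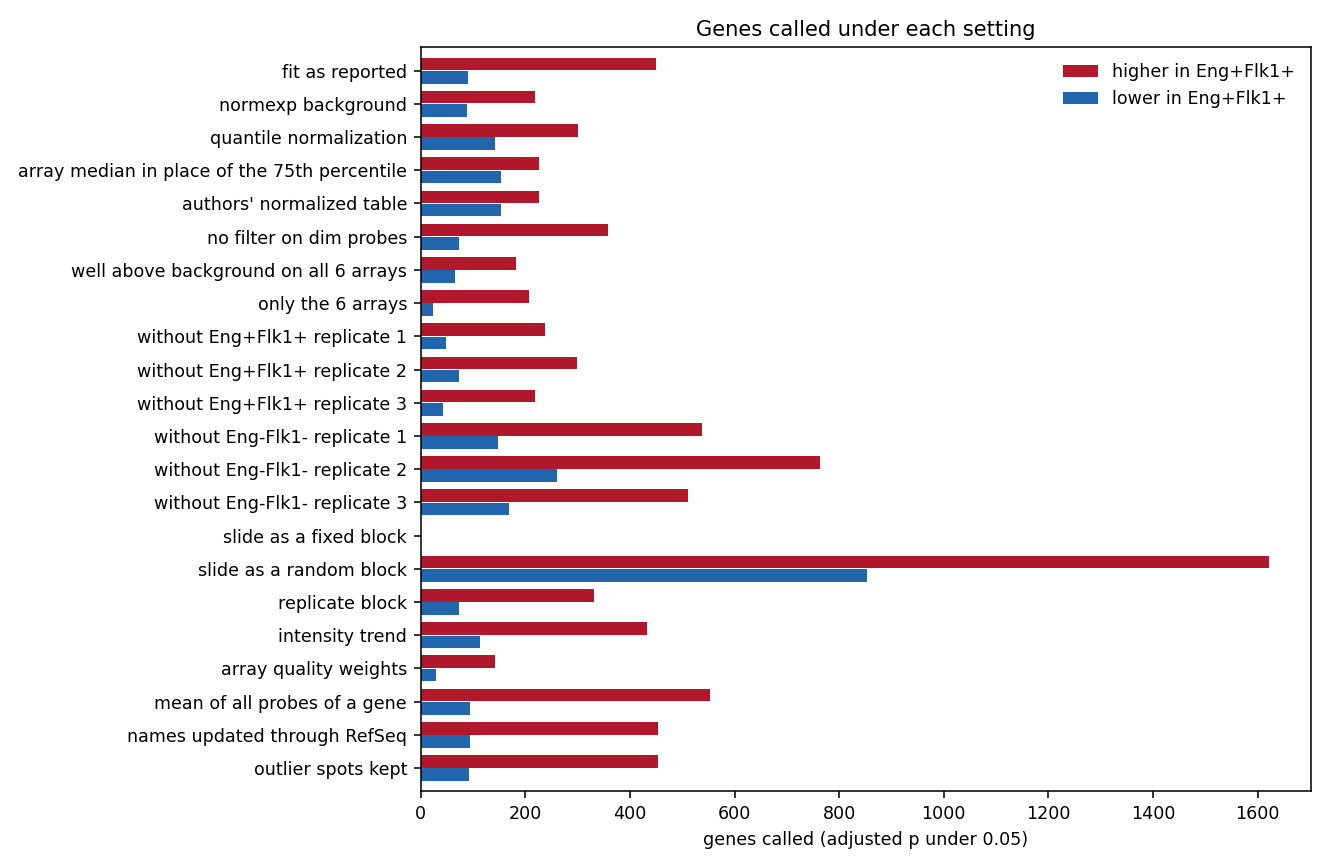
Number of genes called at an adjusted p under 0.05 in Eng+Flk1+ against Eng-Flk1- under each setting, higher in red and lower in blue. The counts ran from 0 with the slide as a fixed block to 1621 higher and 854 lower with the slide as a random block.

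Of 9 members of the vascular endothelial growth factor family tested (receptors, co-receptors and ligands), 4 were called higher and 0 lower. The share called higher was 44.4%, against 1.97% of all genes tested. The median difference was 1.98, against -0.06 over all genes tested. The list includes Kdr, on whose protein the cells were sorted, so part of this result was set by the sort. The count was 2 in 3 of the leave-outs, those of Eng+Flk1+ replicates 1 and 2 and of Eng-Flk1- replicate 2. Of the 9 members, 8 had a positive difference and 1 a negative one. The groups did not overlap for 5 that were higher and 1 that was lower, against 8.88% and 9.23% of all genes tested. Summed over the list on the linear scale, relative to the array's scaling level, the family went the other way. The sums were 137 to 148 in Eng+Flk1+ and 195 to 345 in Eng-Flk1-. Besides Kdr the members called were Flt1, Flt4 and Nrp2, all receptors or co-receptors. Flt4, the receptor for Vegfc, had levels of 1.35, 0.99 and 1.78 in Eng+Flk1+, against -6.95, -5.36 and -6.06 in Eng-Flk1-. The difference was 7.49 ± 0.93 (limma adjusted p = 0.00262), with Flt4 detected on 1 Eng-Flk1- array. Flt1, a receptor that also acts as a decoy for the ligand, had levels of -0.06, -0.33 and 0.41, against -4.41, -5.87 and -5.08, a difference of 5.13 ± 1.05 (limma adjusted p = 0.0326), with this probe detected on 1 Eng-Flk1- array. Nrp2, a co-receptor, differed by 3.71 ± 0.78 (limma adjusted p = 0.0357). Its relative Nrp1 had a difference of 1.98 ± 0.59 and was not called (limma adjusted p = 0.138). Flt4 kept its call whichever array was left out. Flt1 kept it only without Eng-Flk1- replicate 1, and Nrp2 only without Eng+Flk1+ replicate 3 or Eng-Flk1- replicate 3.

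The list of Endoglin partners includes Eng itself, on whose protein the cells were sorted, so Eng enters the median and the share. Of the 17 genes of this list tested, 2 were called higher and 0 lower, with a median of 0.74. These were 11.8% of the list, against 1.97% of all genes called higher. Acvrl1, the type I receptor that pairs with Endoglin, had levels of 1.89, 1.2 and 4.19 in Eng+Flk1+, against -2.49, -4.25 and -4.23 in Eng-Flk1-. It was higher on every Eng+Flk1+ array, by 6.08 ± 0.95 (limma adjusted p = 0.00919), and kept its call whichever array was left out. Bmpr1a, a type I receptor for BMP ligands, was higher by 3.12 ± 0.69 (limma adjusted p = 0.0435), with 1 of its probes at -0.3. That call was lost without Eng+Flk1+ replicate 1 or 3, as well as without Eng-Flk1- replicate 1 or 3. Tgfbr3, another co-receptor of the family, had a difference of 2.25 ± 0.56 and Id2, a target of BMP signalling, one of -3.87 ± 1.05 (limma adjusted p = 0.0711 and 0.101).

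Among transcription factors of the vascular lineage, 4 of 9 Ets and SoxF members were called higher and 0 lower, with a median of 3.65, and 2 were called without Eng+Flk1+ replicate 1. As a share, 44.4% were called higher, against 1.97% of all genes tested. Sox18, a SoxF factor of endothelial cells, had levels of 1.72, 0.78 and 1.77 in Eng+Flk1+, against -5.21, -4.95 and -4.51 in Eng-Flk1-. It was detected on all 6 arrays and differed by 6.31 ± 0.56 (limma adjusted p = 0.000435). Etv2, the Ets factor that starts the endothelial and blood programme, had levels of 2.62, 1.2 and 1.95, against -2.39, -2.09 and -2.75. The groups were well separated, and the difference was 4.33 ± 0.51 (limma adjusted p = 0.00213). Fli1 and Erg, Ets factors of endothelial and blood cells, were higher by 3.65 ± 0.65 and 2.65 ± 0.55 (limma adjusted p = 0.0213 and 0.0328). The Fli1 value of Eng+Flk1+ replicate 3 was missing, and another probe of Erg gave 9.1. Ets1 and Ets2 had similar differences, 4.33 ± 1.17 and 4.32 ± 0.99, and were not called (limma adjusted p = 0.0983 and 0.0517). Sox18 and Etv2 kept their calls whichever array was left out. Fli1 lost it without Eng+Flk1+ replicate 1 or 2, and Erg without Eng+Flk1+ replicate 1 or 3, as well as without Eng-Flk1- replicate 1 or 2.

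Blood and hemangioblast factors gave 3 of 15 called higher, 0 lower and a median of 1.11. With 1 array left out the median ran from 0.58 without Eng+Flk1+ replicate 1 to 2.06 without Eng+Flk1+ replicate 2, and also moved to 0.67 and 1.67 without Eng-Flk1- replicates 2 and 1. The count was 1 without Eng+Flk1+ replicate 1 or 3, 4 without Eng-Flk1- replicate 3 and 0 with only the 6 arrays in the fit. Hhex, a homeobox factor of hemangioblasts, had levels of 1.55, 0.85 and 1.49 in Eng+Flk1+, against -3.72, -3.10 and -1.78 in Eng-Flk1-, a difference of 4.17 ± 0.63 (limma adjusted p = 0.00752). Tal1, a basic helix-loop-helix factor needed for all blood lineages, had levels of 3.95, 3.32 and 3.68, against -0.59, -1.74 and 1.38. It differed by 3.97 ± 0.71 (limma adjusted p = 0.0181). Its relative Lyl1 was higher by 4.30 ± 0.98 (limma adjusted p = 0.0497). Lmo2, which binds Tal1, stood at 4.63, 4.93 and 4.62 in Eng+Flk1+, against 1.21, 0.55 and 4.55 in Eng-Flk1-, and Gata2 at 0.11, 0.15 and 0.48, against -5.26, -7.71 and 3.48. For both genes the Eng-Flk1- arrays disagreed, with replicate 3 the highest, and neither was called (limma adjusted p = 0.192 and 0.485). Hhex kept its call whichever array was left out, Tal1 lost it without Eng+Flk1+ replicate 1 or 3, and Lyl1 lost it in each of the 6 cases.

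Endothelial surface and junction genes were the list with the most calls by number, 8 of 24 higher and 0 lower, with a median of 2.69. The share called higher was 33.3%, against 1.97% of all genes tested. Limited to genes detected on all 6 arrays, the fit called 2 with a median of 1.75. With gene names updated through RefSeq it called 6 with a median of 1.78, and under normexp 7 with a median of 1.55. Sums of the list on the linear scale, relative to the array's scaling level, overlapped between the groups. They were 93.2 to 152 in Eng+Flk1+ and 39.6 to 94.6 in Eng-Flk1-. S1pr1 (named Edg1 in the files), the receptor for sphingosine-1-phosphate, had levels of 0.27, -0.39 and 0.97 in Eng+Flk1+, against -6.54, -8.19 and -7.44 in Eng-Flk1-, where it was detected on no array. Such genes are given a lower bound, with the undetected values raised to the dimmest detected probe of their array where they lay under it. The bound compares group means and makes no allowance for the spread between arrays, so it is not a limit for each array. S1pr1 was at least 57.7-fold higher (limma adjusted p = 0.00069). Egfl7, a secreted endothelial factor, had levels of 4.05, 3.29 and 3.57, against -1.71, -0.33 and -1.45, and was detected on all 6 arrays. It differed by 4.80 ± 0.66 (limma adjusted p = 0.00426). Plvap, a protein of endothelial diaphragms, was higher by 4.01 ± 0.62 (limma adjusted p = 0.00827). The other members called, besides Tie1 and Cdh5, lie outside the rule for named genes and are given because they complete the count. Tek, the angiopoietin receptor, had levels of 2.17, 1.77 and 2.24, against -7.73, -4.07 and -7.35, a difference of 8.44 ± 1.3 (limma adjusted p = 0.00827), with this probe detected on 1 Eng-Flk1- array. Cd34, detected on 2 Eng-Flk1- arrays, differed by 5.19 ± 0.96 (limma adjusted p = 0.0204), and Ecscr was at least 12-fold higher (limma adjusted p = 0.0213). Pecam1, also outside the rule, had levels of 2.21, 2.02 and 2.41, against -1.73, 1.55 and -1.65. All 3 Eng+Flk1+ values lay above the Eng-Flk1- values, but it was not called (2.83 ± 0.76, limma adjusted p = 0.0984). Cd34 lost its call without any 1 of the Eng+Flk1+ arrays, and Ecscr without Eng+Flk1+ replicate 2 or 3, as well as without Eng-Flk1- replicate 1.

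**Figure D3:**
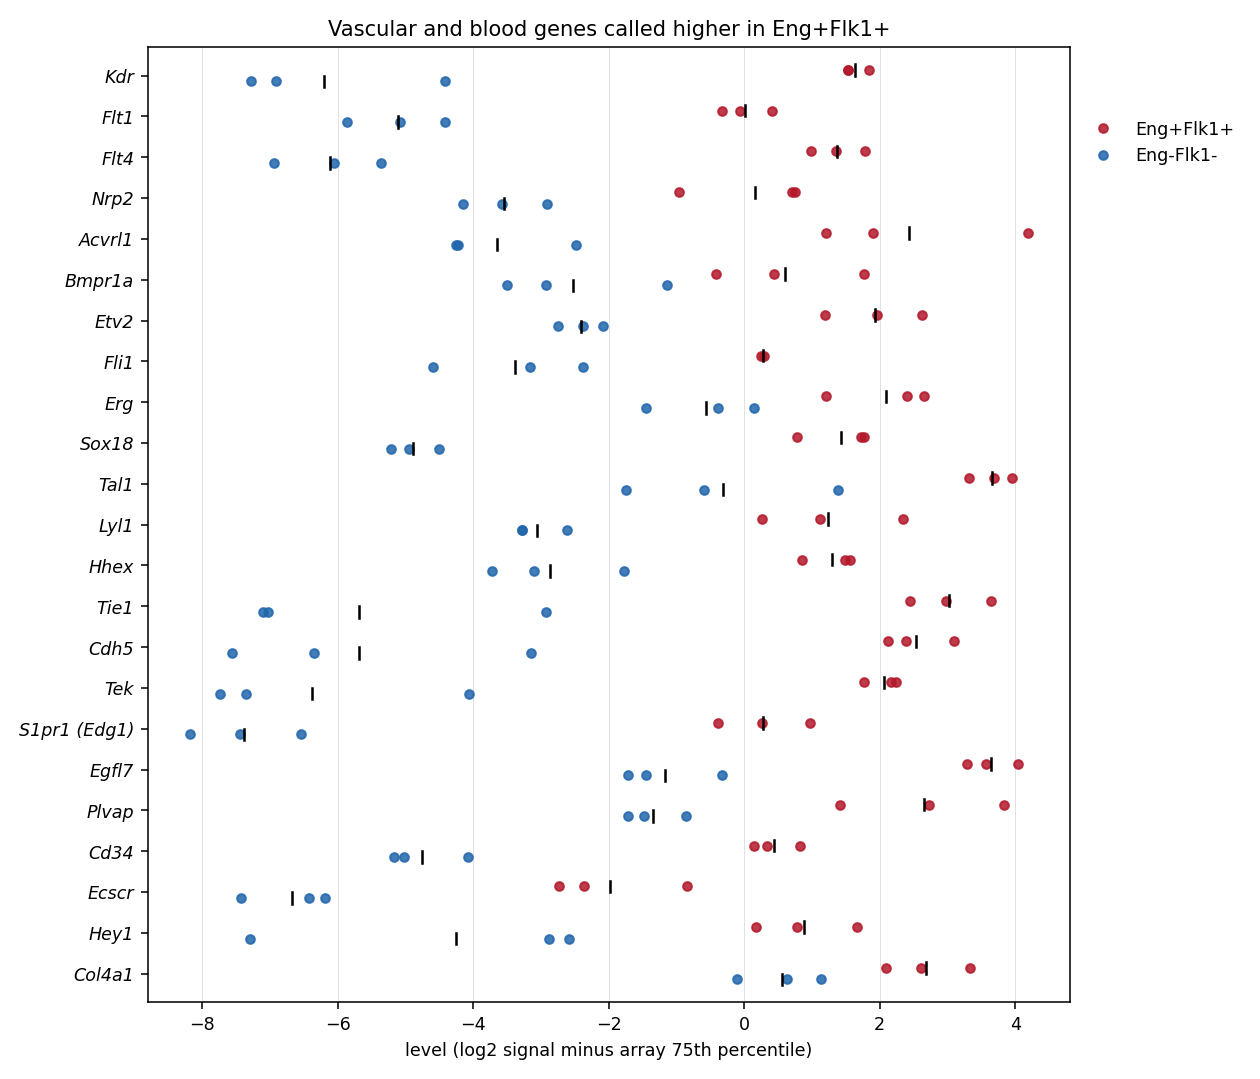
Levels of 23 vascular and blood genes called higher, in log2 signal minus the array's 75th percentile, with 1 point per array (Eng+Flk1+ red, Eng-Flk1- blue) and bars at the group means. The 2 groups of points did not overlap for any gene shown, and the Fli1 value of Eng+Flk1+ replicate 3 was missing.

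Notch pathway genes had 1 of 13 called higher (7.69%, against 1.97% of all genes tested), 0 lower and a median of 1.06. This was Hey1, a Notch target, at 0.18, 0.78 and 1.66 in Eng+Flk1+, against -2.89, -7.29 and -2.58 in Eng-Flk1- (5.13 ± 1.16, limma adjusted p = 0.0497). Hey1 was detected on 2 Eng-Flk1- arrays. The size of its difference rests in part on Eng-Flk1- replicate 2, without which the difference was 3.61, and the call was lost without any 1 of the Eng+Flk1+ arrays. The receptors Notch1 and Notch4 had differences of 1.81 ± 0.48 and 1.97 ± 0.73, and the ligand Dll1 one of -4.25 ± 1.1 (limma adjusted p = 0.0952, 0.23 and 0.0843). Of 17 basement membrane and integrin genes, 1 was called higher (5.88%) and 0 lower, with a median of 1.67. Col4a1, a collagen of basement membranes, had levels of 2.09, 2.61 and 3.33, against 0.63, -0.11 and 1.14, a difference of 2.13 ± 0.48 (limma adjusted p = 0.0489) that kept its call only without Eng-Flk1- replicate 3. Its partner Col4a2 and the laminin Lama4 had differences of 2.81 ± 0.81 and 2.91 ± 0.68 (limma adjusted p = 0.122 and 0.0562). None of 15 vascular guidance genes (ephrins, plexins, semaphorins and their like) was called by limma. Their median of -0.23 turned to 0.07 and 0.16 without Eng+Flk1+ replicate 1 and Eng-Flk1- replicate 3, to near 0 without Eng+Flk1+ replicate 3, and to 0.23 with the mean of all probes. The count was not 0 throughout, as 1 member was called higher without Eng-Flk1- replicate 2.

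Mesenchymal, cardiac, allantois and streak lists each held 1 or 2 genes called higher and none called lower. The shares called higher, 5.56% to 11.8% against 1.97% of all genes tested, thus rest on 1 or 2 genes a list. Twist1, a factor of mesenchyme, was detected on every Eng+Flk1+ array but no Eng-Flk1- array and was at least 12.6-fold higher (limma adjusted p = 0.00937). The intermediate filament gene Vim had levels of 3.69, 3.26 and 3.86 in Eng+Flk1+, against -0.54, 1.2 and -2.58 in Eng-Flk1- (4.24 ± 0.80, limma adjusted p = 0.0218). These were the 2 called of 17 mesenchymal genes, whose median was 0.42 and turned to -0.18 under scaling to the array median and to -0.11 without Eng-Flk1- replicate 2. Mef2c, a MADS-box factor of heart and vessels, and Tbx20, a T-box factor of the heart, were higher by 5.65 ± 0.67 and 3.86 ± 0.72 (limma adjusted p = 0.00212 and 0.021), the 2 called of 17 cardiac genes with a median of -0.36. Both were detected on 2 Eng-Flk1- arrays. Bmp4, a ligand made by extraembryonic mesoderm, had levels of 2.66, 2.11 and 1.5, against -3.72, -1.44 and -3.24. It was the 1 called of 17 allantois genes (4.89 ± 0.62, limma adjusted p = 0.0029; median of the list -0.44). Aplnr (Agtrl1 in the files), the apelin receptor, had levels of 4.31, 4.25 and 4.5, against 2.84, 1.74 and 2.45. It was the 1 called of 18 streak and nascent mesoderm genes (2.01 ± 0.43, limma adjusted p = 0.0381). The median of that list, -0.23, turned to 0.09 without Eng-Flk1- replicate 3. Twist1, Mef2c and Bmp4 kept their calls whichever array was left out. Vim lost its call without any 1 of the Eng+Flk1+ arrays, Tbx20 without Eng+Flk1+ replicate 1 or 2, and Aplnr without any 1 of the Eng+Flk1+ arrays or without Eng-Flk1- replicate 2.

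The largest rises among called genes detected on all 6 arrays, passing over names that are only identifiers, were Anxa5, Arap3 (Centd3 in the files), Sox18, Grap, Polg, Acvrl1, Fgd5, Rhoj, Dysf, Git1, Psme2 and S100a10, between 5.38 and 6.51. Anxa5, a calcium-dependent phospholipid-binding protein, had levels of 1.85, 1.12 and 1.49 in Eng+Flk1+, against -5.39, -5.66 and -4.01 in Eng-Flk1- (6.51 ± 0.72, limma adjusted p = 0.00163). Arap3, a GTPase-activating protein, had levels of 3.98, 3.27 and 3.64, against -2.44, -3.41 and -2.33 (6.36 ± 0.52, limma adjusted p = 0.000321), and another of its probes gave 3.5. Rhoj had levels of 2.04, 2.17 and 3.10, against -3.45, -3.12 and -3.26 (5.71 ± 0.48, limma adjusted p = 0.000414), while its other probe gave 0.6. The exchange factor Fgd5 and the Arf regulator Git1 were higher by 5.77 ± 1.26 and 5.56 ± 0.76 (limma adjusted p = 0.0426 and 0.00426). Polg, the mitochondrial DNA polymerase, had levels of 2.95, 2.24 and 2.88, against -3.32, -3.21 and -3.91 (6.17 ± 0.41, limma adjusted p = 0.000126). The adaptor Grap differed by 6.28 ± 0.88, the membrane repair gene Dysf by 5.68 ± 1.05, the proteasome activator Psme2 by 5.51 ± 1.06 and S100a10, a partner of annexin A2, by 5.38 ± 0.73 (limma adjusted p = 0.00485, 0.0204, 0.0237 and 0.00413). The other probe of Psme2 gave 1.1. Fgd5 lost its call whichever array was left out, Dysf without any 1 of the Eng+Flk1+ arrays, and Psme2 without Eng+Flk1+ replicate 1 or 3, as well as without Eng-Flk1- replicate 1 or 3. The others in this group kept theirs.

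Genes detected on every Eng+Flk1+ array but no Eng-Flk1- array reached higher bounds. Tspan14, a tetraspanin, had levels of 3.38, 1.1 and 2.64 in Eng+Flk1+, against -6.09, -7.99 and -7.30 in Eng-Flk1-, and was at least 246-fold higher (limma adjusted p = 0.00175). The bounds of Zfp711, Gap43, Mkks, Txndc12 and F2r were at least 113-, 107-, 98.8-, 91.0- and 90.2-fold (limma adjusted p = 0.000414, 0.0317, 0.000321, 0.000321 and 4.19e-05). F2r encodes the thrombin receptor, with levels of 1.42, 0.15 and 1.21, against -7.97, -8.05 and -7.23. Gap43 kept its call only without Eng-Flk1- replicate 2, and the other 5 kept theirs whichever array was left out.

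Globin genes were among the largest falls. Hba-a1, an alpha globin, had levels of -1.99, -1.61 and -1.93 in Eng+Flk1+, against 8.51, 7.85 and 8.79 in Eng-Flk1-, a difference of -10.22 ± 1.1 (limma adjusted p = 0.0014). Hba-a2 had levels of -0.68, -0.50 and -0.84, against 7.47, 6.90 and 7.81 (-8.07 ± 0.79, limma adjusted p = 0.000758). All 3 replicates of each group lay close together. Hbb-bh1, an embryonic beta-like globin, differed by -5.26 ± 0.61 and Hbb-b1 by -4.05 ± 0.40 (limma adjusted p = 0.00192 and 0.000798). Another probe of Hbb-bh1 gave -11.2 and one of Hbb-b1 -10.8. Eraf, the older name of the alpha globin chaperone, differed by -5.81 ± 0.78 (limma adjusted p = 0.00407). The embryonic alpha globin Hba-x stood at -5.55, -4.98 and -5.0, against 4.06, 1.19 and -2.15, and with these disagreeing Eng-Flk1- arrays it was not called (-6.21 ± 1.73, limma adjusted p = 0.108). Of 21 primitive erythroid genes tested, 4 were called lower, 1 higher (Cd59a, a regulator of complement, 2.35 ± 0.50, limma adjusted p = 0.0386), and the median was -1.18, but -0.43 without Eng+Flk1+ replicate 3 and -0.79 without Eng-Flk1- replicate 3. The 4 called lower are all globins, whose near-identical copies a probe may not tell apart. Eraf, which is no globin and was also called lower, was not matched to the list. It is outside the count, the median and the sum. Summed over the list on the linear scale, the level was 27.4 to 38.8 times the 75th percentile in Eng+Flk1+ and 438 to 780 times in Eng-Flk1-. The globins and Eraf kept their calls whichever array was left out, and Cd59a lost it in 4 of the 6 cases.

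**Figure D4:**
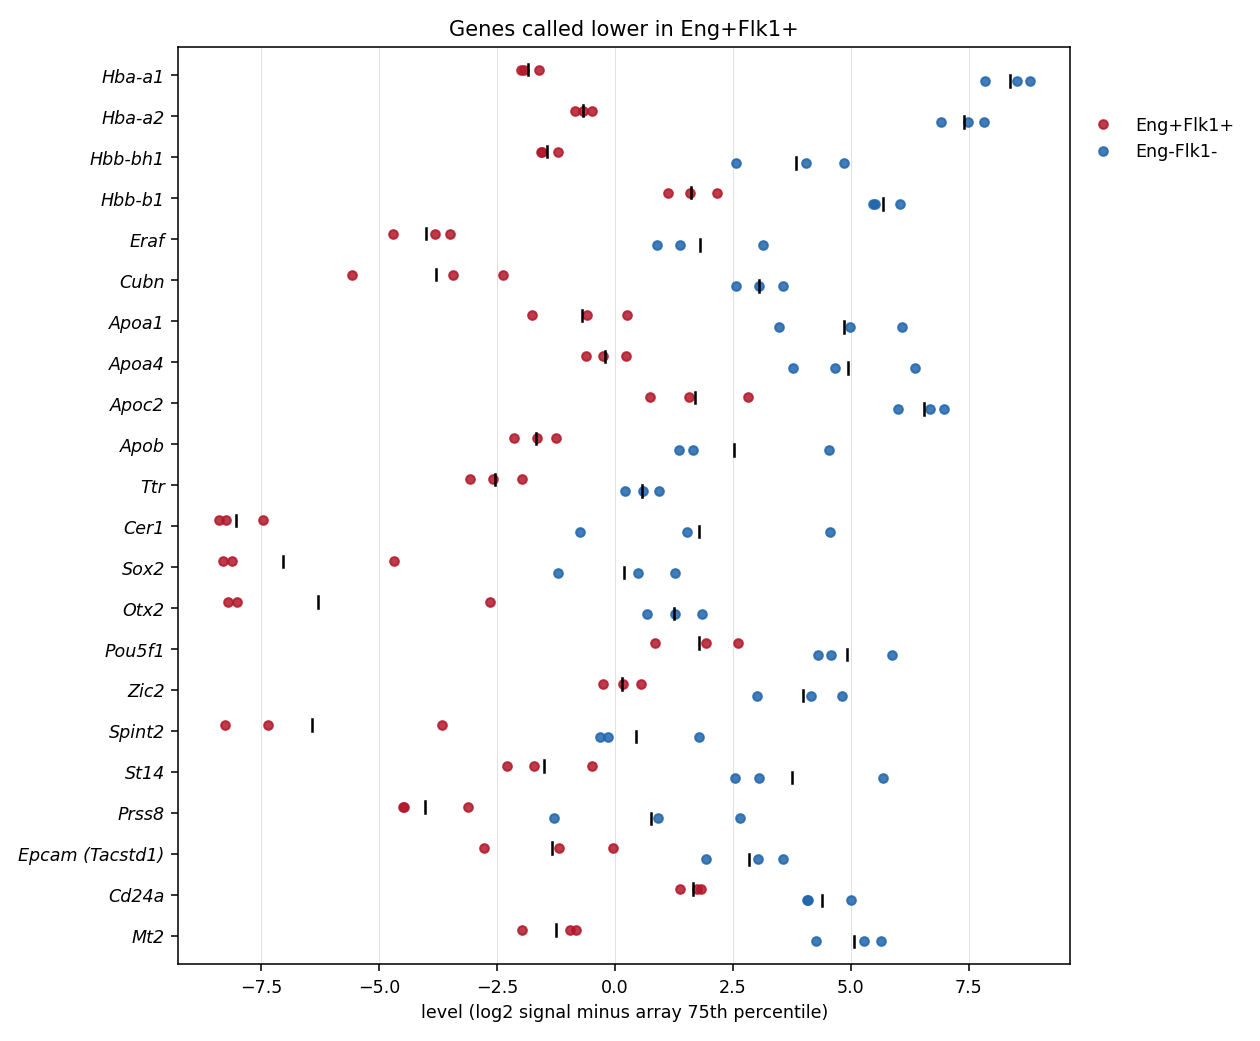
Levels of 22 genes called lower, in log2 signal minus the array's 75th percentile, with 1 point per array (Eng+Flk1+ red, Eng-Flk1- blue) and bars at the group means. Hba-a1 lay between -1.99 and -1.61 on the Eng+Flk1+ arrays and between 7.85 and 8.79 on the Eng-Flk1- arrays.

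Of 26 visceral endoderm genes, 6 were called lower (23.1%, against 0.398% of all genes tested) and 0 higher, with a median of -1.59. Besides Cubn these were 4 apolipoprotein genes and Ttr, the carrier of thyroid hormone. Apoc2 had levels of 1.56, 2.82 and 0.74 in Eng+Flk1+, against 6.68, 5.99 and 6.97 in Eng-Flk1- (-4.84 ± 0.69, limma adjusted p = 0.00538). Apoa1 had levels of 0.26, -1.77 and -0.60, against 4.98, 3.48 and 6.07 (-5.55 ± 0.92, limma adjusted p = 0.012). The groups did not overlap for either gene. Apoa4 and Apob differed by -5.14 ± 0.75 and -4.21 ± 0.85 (limma adjusted p = 0.00642 and 0.0308), and Ttr by -3.12 ± 0.52 (limma adjusted p = 0.0119). The members of the list summed to 41.4 to 47.9 in Eng+Flk1+ and 138 to 497 in Eng-Flk1-, in multiples of the 75th percentile. The part of visceral endoderm and red cells in the other genes that were lower was not tested. Cer1, an inhibitor of Nodal and BMP ligands made by anterior visceral endoderm, had levels of -8.24, -7.47 and -8.40, against -0.74, 1.52 and 4.55. It was detected on no Eng+Flk1+ array and was at least 241-fold lower (limma adjusted p = 0.00196), the 1 called of 14 definitive endoderm, node and organizer genes. That is 7.14% of this list, against 0.398% of all genes called lower. Apob lost its call without any 1 of the Eng+Flk1+ arrays and Ttr without Eng+Flk1+ replicate 1, while the others kept theirs whichever array was left out.

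Some epiblast and epithelial genes were also called lower. Of 16 epiblast and neural plate genes, 4 were called lower, 0 higher, with a median of -1.0, and of 22 epithelial genes 5 were called lower, 0 higher, with a median of -1.49. The shares called lower were 25.0% and 22.7%, against 0.398% of all genes tested. The epiblast count was 2 without any 1 array other than Eng-Flk1- replicate 2, and the epithelial count was 3 and 2 without Eng+Flk1+ replicates 1 and 3. The epiblast median was -1.54 without Eng-Flk1- replicate 1. Pou5f1 (Oct4), the pluripotency factor, had levels of 0.84, 2.60 and 1.93 in Eng+Flk1+, against 4.57, 4.30 and 5.88 in Eng-Flk1- (-3.13 ± 0.58, limma adjusted p = 0.021). Zic2, a zinc finger factor of the neural plate, had levels of -0.25, 0.54 and 0.16, against 4.14, 3.01 and 4.80 (-3.84 ± 0.62, limma adjusted p = 0.0107). Otx2, a homeobox factor of the anterior epiblast, had levels of -8.20, -8.02 and -2.66, against 1.26, 0.67 and 1.84 (-7.55 ± 1.70, limma adjusted p = 0.048), and was detected on 1 Eng+Flk1+ array. Epcam (Tacstd1 in the files), an adhesion molecule of epithelia, had levels of -1.19, -0.05 and -2.77, against 3.56, 3.03 and 1.92 (-4.17 ± 0.89, limma adjusted p = 0.0386). The serine proteases St14 and Prss8 and their inhibitor Spint2 differed by -5.26 ± 1.02, -4.79 ± 0.91 and -6.87 ± 1.09 (limma adjusted p = 0.0257, 0.0229 and 0.00987), with Spint2 detected on 1 Eng+Flk1+ array. The glycoprotein gene Cd24a had levels of 1.81, 1.37 and 1.74, against 4.07, 4.09 and 5.0 (-2.75 ± 0.44, limma adjusted p = 0.0104). Another probe of St14 gave 0.2. Zic2, Spint2 and Cd24a kept their calls whichever array was left out. Pou5f1 and Prss8 lost it without Eng+Flk1+ replicate 1 or 3 and St14 without Eng+Flk1+ replicate 2 or 3. Otx2 kept it only without Eng+Flk1+ replicate 3, and Epcam only without Eng+Flk1+ replicate 2 or Eng-Flk1- replicate 3.

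Further falls lay outside these groups. Mt2, a metallothionein that binds zinc, had levels of -0.84, -0.95 and -1.97 in Eng+Flk1+, against 5.28, 4.25 and 5.64 in Eng-Flk1- (-6.31 ± 0.55, limma adjusted p = 0.000414). The lysosomal protease gene Ctsc differed by -5.79 ± 1.04, Rragd, a GTPase of the mTORC1 pathway, by -5.31 ± 0.86 and Scamp1, a vesicle membrane protein, by -5.26 ± 0.95 (limma adjusted p = 0.0181, 0.0109 and 0.0181). Another probe of Rragd gave 0.9 and one of Scamp1 -0.9. Ccnb3, a cyclin, was detected on no Eng+Flk1+ array and was at least 3.63-fold lower (limma adjusted p = 0.0403). Of 18 genes of glycolysis and glucose transport, 2 were called lower, 0 higher, with a median of -0.77: the glucose transporter Slc2a3 (-3.77 ± 0.77, limma adjusted p = 0.0322) and the lactate transporter Slc16a1 (-3.69 ± 0.75, limma adjusted p = 0.0317). These 2 genes were 11.1% of that list, against 0.398% of all genes tested. Cdx2 (-4.80 ± 0.98, limma adjusted p = 0.0317), detected on 2 Eng+Flk1+ arrays, was the 1 called of 17 trophoblast genes and Gja1, a gap junction gene (-2.38 ± 0.53, limma adjusted p = 0.0466), the 1 called of 9 decidua genes. Both genes are also expressed in the embryo itself. They make up 5.88% and 11.1% of their lists, each 1 gene, against 0.398% of all genes called lower. Mt2 and Rragd kept their calls whichever array was left out. Ctsc lost it without Eng+Flk1+ replicate 1 or 3, Scamp1 without Eng+Flk1+ replicate 1 or 2, Cdx2 without Eng+Flk1+ replicate 1 or Eng-Flk1- replicate 3, and Ccnb3, Slc2a3, Slc16a1 and Gja1 each in 3 or more of the 6 cases.

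Genes of the mitochondrion and of general cell functions were counted last. Of 74 respiratory chain and ATP synthase genes, 4 were called higher (Ndufa3, Ndufv2, Cox5a and Ndufa8, 4.23 to 4.95), 0 lower, with a median of 0.17, and of 70 mitochondrial ribosomal genes 5 were called higher (Mrpl30, Mrpl48, Mrpl33, Mrpl24 and Mrpl37, 3.07 to 5.01), 0 lower, with a median of 0.43. The calls were 5.41% and 7.14% of these lists, against 1.97% of all genes called higher. Under scaling to the array median both medians turned negative, -0.42 and -0.17, and the first was -0.01 without Eng+Flk1+ replicate 1. With 1 array left out, 2 to 5 respiratory chain genes and 2 to 9 mitochondrial ribosomal genes were called higher. Mrpl48 and Ndufa8 were detected on 1 Eng-Flk1- array, and Cox5a and Mrpl37 on 2. Another probe of Ndufa3 gave 1.0 and one of Mrpl33 -0.9. In the limma fit 1 of 39 proteasome genes (Psmb5) was called higher, 2.56% and near the 1.97% of all genes tested. Of 71 cytosolic ribosomal genes none was called, with a median of -0.52 that turned to 0.15 under quantile normalization. None of 25 cell cycle, 16 stress response, 11 blood surface or 8 germ cell genes was called either. Markers of maternal decidua summed to 21.4 to 28.4 times the 75th percentile in Eng+Flk1+ and 30.0 to 48.1 times in Eng-Flk1-, and stress response genes to 269 to 282 and 348 to 623 times. Higher sums in Eng-Flk1- were not particular to these lists. Cytosolic ribosomal genes summed to 2439 to 3832 and 3858 to 7381 times, and glycolysis genes to 289 to 420 and 502 to 924 times. The Ets and SoxF list went the other way, 23.8 to 47.6 and 2.49 to 12.8 times. The part of decidua cells or of stress in the differences was not tested. Of these 9 mitochondrial genes, Ndufa3, Ndufv2 and Mrpl30 kept their calls whichever array was left out. Mrpl48 lost it without Eng+Flk1+ replicate 3, and the other 5 and Psmb5 in 3 or more of the 6 cases.

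**Figure D5:**
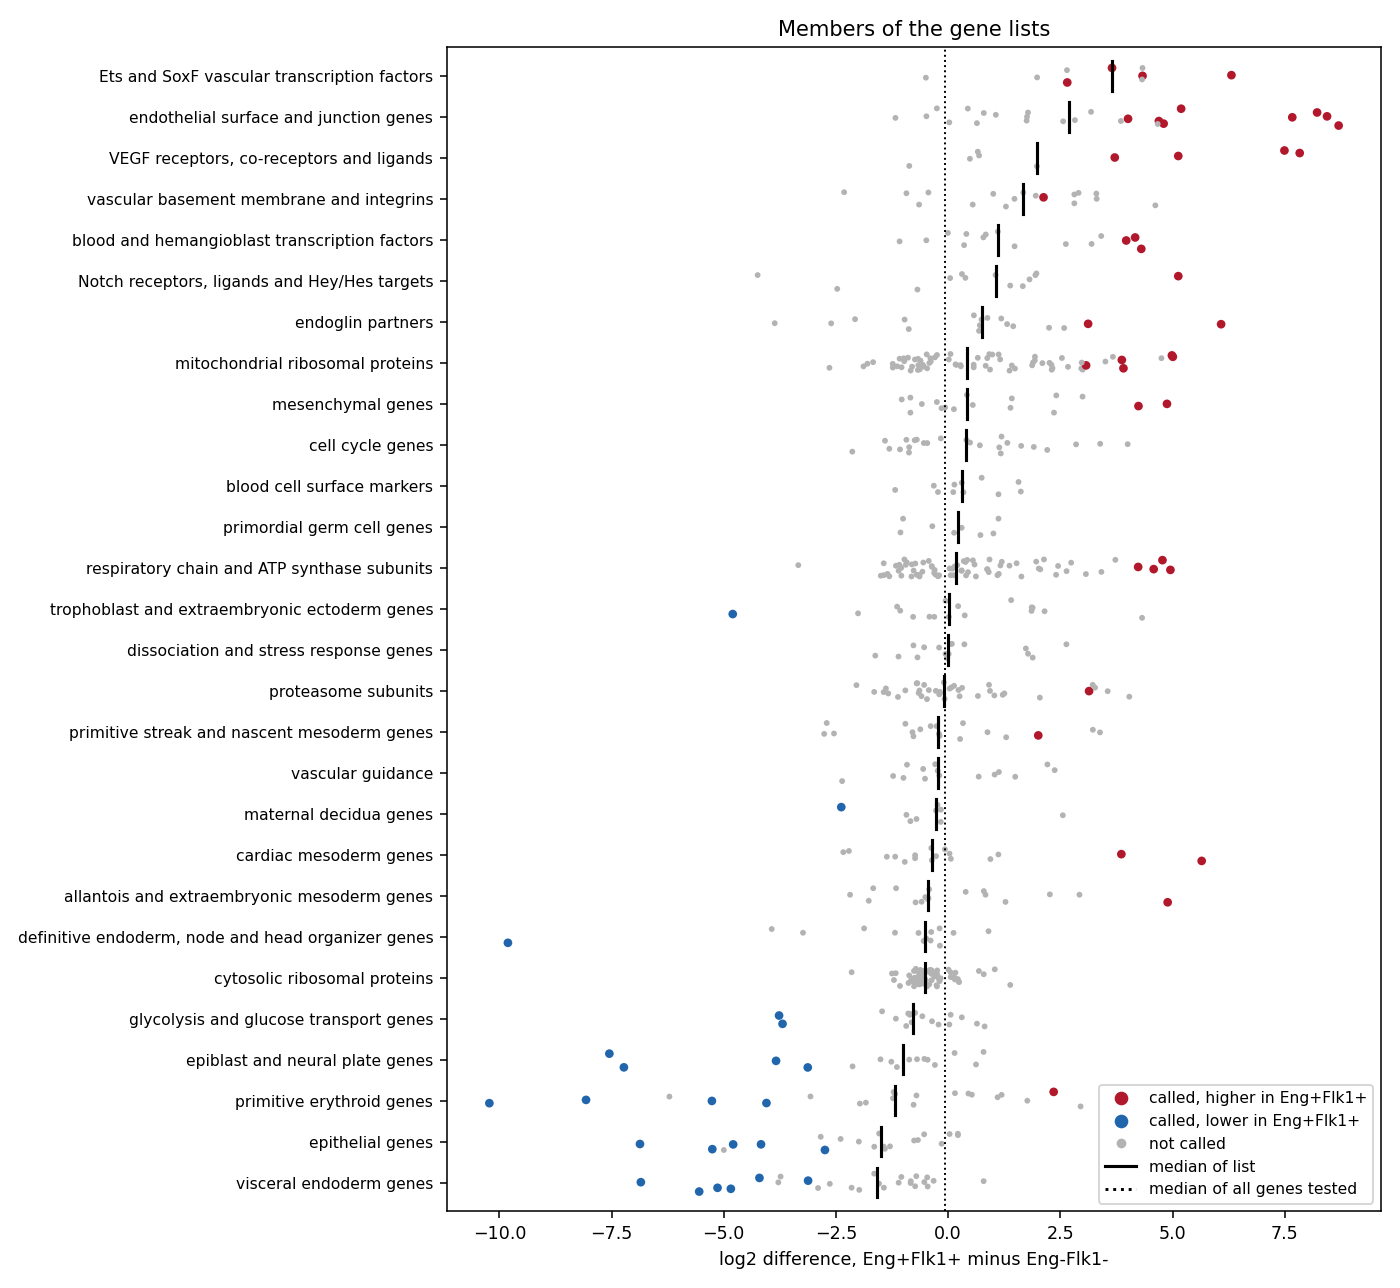
Log2 differences, Eng+Flk1+ minus Eng-Flk1-, of the tested members of 28 gene lists ordered by median, with 1 point per gene, red or blue where called, and a bar at the list's median. The medians ran from 3.65 for Ets and SoxF factors to -1.59 for visceral endoderm genes, beside a dotted line at -0.06 for all genes tested.

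The single-positive fractions give a setting for these levels. Tie1 averaged 3.02 ± 0.60 in double-positive cells (SD, n = 3 in each fraction), -1.72 ± 1.33 in cells with Flk1 alone, -5.07 ± 0.69 in cells with Endoglin alone and -5.68 ± 2.39 in double-negative cells. Tal1 averaged 3.65 ± 0.31 in double-positive cells, 3.46 ± 0.42 in cells with Flk1 alone, -0.01 ± 0.67 in cells with Endoglin alone and -0.32 ± 1.58 in double-negative cells. Etv2 averaged 1.92 ± 0.71 in double-positive cells, 3.47 ± 0.69 in cells with Flk1 alone, -1.04 ± 0.42 in cells with Endoglin alone and -2.41 ± 0.33 in double-negative cells. Whether the double-positive level lay off the sum of the 2 single steps was tested as an interaction, the step from Eng-Flk1+ to Eng+Flk1+ minus the step from Eng-Flk1- to Eng+Flk1-. By limma 63 genes were called (0.276%), 3 positive (0.0131%) and 60 negative (0.263%), and 0 with the slide as a fixed block (1424 at an unadjusted p under 0.05). The interaction was 4.12 ± 1.52 for Tie1, -0.12 ± 1.01 for Tal1 and -2.92 ± 0.72 for Etv2, none of which passed (limma adjusted p = 0.381, 0.979 and 0.16).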

How the data were processed

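Sorted cells were hybridised 1 sample to an array, on 1-colour Agilent whole-genome arrays labelled with Cy3 after PCR-based amplification, per the labels. Per the file headers, scans were read with Agilent Feature Extraction 10.5.1.1, and the deposited processed signal is an intensity per spot, corrected for background and spatial trend, with no scaling between arrays and probe positions in build mm8. The deposited files also give flags of 0 or 1 per spot, and the authors' table of all samples holds intensity divided by the array median.

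From the scanner files, 1639 control spots per array and outlier flags were left out, which left 43379 spots and 41174 probes. The log2 signal minus the array's 75th percentile was averaged over spots of a probe. Each of 27745 gene names took the values of its brightest probe, by the mean of the 12 arrays. Genes detected on all 3 arrays of at least 1 of the 4 fractions were tested, 22844 in all, of which 105 had a missing value among the 6 arrays. One linear model of the 4 fractions was fitted with limma 3.58.1 in R 4.3.3 (data.table package, version 1.17.8), with moderated tests, Benjamini-Hochberg adjustment over all genes and calls at an adjusted p under 0.05. All fractions share the spread of a gene in this fit, though its median SD was 1.01 in Eng-Flk1-, against 0.56 to 0.67 in the other fractions. The script was tested on simulated data. Precision is limited by 3 arrays a group, and no spot was saturated. All arrays of the series were scaled by the same rule, each to its own 75th percentile.

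The genes compared, the gene lists and the tests were chosen with earlier results of these data known. Named genes are Kdr, Eng, Tie1, Cdh5, Cubn and Sox2, the 12 largest rises and 12 largest falls among called genes that do not overlap and are detected on all 6 arrays, the 6 highest lower bounds each way, and up to 5 members of each list with the lowest p. Names that are only identifiers were passed over, and genes outside the rule are given to complete a count or as relatives of a called gene. Alternatives changed the background correction, scaling, filter, probes, names, spread, slide, pairing and arrays used. Replicate numbers are shared between groups. Deviations of same-numbered arrays from their group means correlated at -0.007, -0.017 and 0.054 over genes, and those of unlike number at -0.064 to 0.068. No pairing by number was thus seen, though 3 arrays a group cannot exclude it. Promoter sequences are from RefSeq, build GRCm38.p6, which also served to update names.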

Additional observations from a re-analysis of the deposited data

Results flagged for a closer look

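The interaction was past the threshold for 9 genes named by the rule, which means that the step from Eng-Flk1+ to Eng+Flk1+ differed from the step from Eng-Flk1- to Eng+Flk1-. For 8 of them the interaction was negative, with the level in Eng-Flk1- lower than in the other 3 fractions. Mkks averaged 1.06 ± 1.11 in double-positive cells, 0.75 ± 0.25 in cells with Flk1 alone, 1.29 ± 0.29 in cells with Endoglin alone and -7.10 ± 1.05 in double-negative cells (SD, n = 3 each), an interaction of -8.09 ± 0.91 (limma adjusted p = 0.00684). Txndc12 gave -8.01 ± 0.91 (limma adjusted p = 0.00684), Polg -4.99 ± 0.57 (limma adjusted p = 0.00684) and F2r -5.98 ± 0.70 (limma adjusted p = 0.00716). Mkks, Txndc12 and F2r were detected on no Eng-Flk1- array, so near-background values enter the size of their interactions. The extraembryonic mesoderm genes Bmp4 and Foxf1 (Foxf1a in the files) gave -6.13 ± 0.88 and -7.54 ± 1.06 (limma adjusted p = 0.0239 and 0.0223). Bmp4 averaged 2.09 ± 0.58 in double-positive cells, 2.02 ± 0.57 in cells with Flk1 alone, 3.40 ± 0.34 in cells with Endoglin alone and -2.80 ± 1.2 in double-negative cells. The mitochondrial genes Mrpl30 and Ndufv2 gave -6.40 ± 0.92 and -6.97 ± 0.97 (limma adjusted p = 0.0239 and 0.0223). Hbb-b1 had the opposite sign, 3.58 ± 0.57 (limma adjusted p = 0.0353), with levels of 1.62 ± 0.52 in double-positive cells, 1.61 ± 0.25 in cells with Flk1 alone, 2.10 ± 0.17 in cells with Endoglin alone and 5.67 ± 0.33 in double-negative cells. Of the slides, slide 1 holds the 3 Eng-Flk1- arrays together with 1 Eng-Flk1+ array, and its part in these values was not tested.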

How the results depend on the processing

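Of 86 called genes checked one by one, none changed sign under any alternative run. Of these, 45 kept their call whichever of the 6 arrays was left out. With only the 6 arrays in the fit 38 kept it, and with array quality weights 41. With the slide as a fixed block 0 kept it, and Kdr stood at 7.58. Under normexp background correction Kdr was called but stood at 4.12, against 7.83 as reported. With only the 6 arrays, calls were 0 of 15 blood factors, 3 of 26 visceral endoderm genes and 7 of 24 endothelial genes. Counts of genes called higher and lower, 450 and 91 as reported, were 218 and 88 with normexp, 301 and 142 with quantile normalization, 227 and 154 with the array median and equally with the authors' table, 183 and 65 among genes detected on all 6 arrays, 207 and 24 with only the 6 arrays, 143 and 29 with array quality weights, 1621 and 854 with the slide as a random block (Eng 2.64 and called there) and 0 and 0 with it as a fixed block. With 1 array left out they ran from 219 to 764 and from 42 to 261. The groups share no slide, so the larger counts of the random-block run, and the call of Eng there, are not firmer results. The interaction counts, 3 positive and 60 negative, were 9 and 31 with normexp, 3 and 37 with quantile normalization, 5 and 28 with the array median, 5 and 31 with the authors' table, 1 and 45 without a filter, 3 and 18 among genes detected on all 6 arrays, 5 and 78 with a random slide block, 0 and 0 with a fixed one, and 1 to 37 and 44 to 275 with 1 array left out. With the replicate block, 331 genes were higher and 73 lower, and the interaction called 0 and 26; Kdr stayed at 7.83 and Eng at 2.59. No pairing by replicate number was seen in the deviations from group means. Same-numbered arrays correlated at -0.007, -0.017 and 0.054, and those of unlike number at -0.064 to 0.068. The other alternatives moved no count of the main comparison by over 1.5 times. The causes of these shifts were not tested. The lower detection on the Eng-Flk1- arrays limits differences of dim genes.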
